A study of Mus musculus with 12 samples.

Results

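Nuclear genes of oxidative phosphorylation were followed in atria and ventricles of mice that express expanded CUG repeats in cardiomyocytes. The genes were chosen by symbol, as the rows of the deposited table that begin with Nduf, Uqcr, Cox4 to Cox8 or Atp5 or that are Sdha, Sdhb, Sdhc, Sdhd, Cyc1 or Cycs, with symbols that contain -ps left out. The rule gave 95 genes of the 51826 rows. The rule itself reads symbols and no expression value. Of the 95 genes, 29 are accessory and 7 are core subunits of complex I, 8 are complex I assembly factors, 4 belong to complex II, 9 to complex III and 20 to complex IV, and 1 is cytochrome c. The F1 part of ATP synthase (complex V) had 6 genes and its Fo part and stalk had 9. The remaining 2, Atp5s and Atp5sl, are named after ATP synthase but are not subunits of it: Atp5s is coupling factor B, and Atp5sl, which the annotation names Dmac2, is an assembly protein of the distal membrane arm of complex I. Cox7a2l, kept with complex IV, is a factor that joins complexes III and IV into supercomplexes.

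Oxidative phosphorylation makes most of the ATP of a working heart. Complexes I and II pass electrons from NADH and succinate to ubiquinone, complex III passes them to cytochrome c and complex IV to oxygen, and the proton gradient built on the way drives ATP synthase. Most subunits are encoded in the nucleus and imported, a small core set is encoded in mitochondrial DNA, and assembly factors that are absent from the finished complexes join the parts. Several subunits of complex IV exist as a heart and skeletal muscle isoform and a ubiquitous or liver isoform encoded by separate genes.

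CUG960 +dox mice were homozygous for TREDT960I, an inducible transgene that places 960 interrupted CUG repeats within human DMPK sequence under a tetracycline response element, and hemizygous for MHCrtTA, in which the cardiomyocyte promoter of the alpha myosin heavy chain gene drives the reverse tetracycline transactivator. MHCrtTA +dox controls were hemizygous for MHCrtTA alone. All mice were FvB females, 10 weeks old, and received 2 g/kg dox in chow from postnatal day 1, so the transactivator and dox were common to both groups and the repeat transgene was not. Atria and ventricles of 3 mice per genotype gave 12 libraries of poly(A) RNA. Mice are named as in the records: the controls V327, V333 and V334 were compared with V119, V120 and V123, which carried the repeats. Each library is the tissue of 1 mouse, and the promoter that drives the transactivator is specific to cardiomyocytes, whereas the libraries hold RNA of all cells of the chamber. The labelled chambers were checked against their markers: the 6 atrial cardiomyocyte markers summed to 28062 CPM in control atria and 137 CPM in control ventricles, and the 5 ventricular markers, led by Myl2, to 1862 and 11434 CPM.

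Library depth ranged from 116127966 to 160676189 counts on genes. The 95 genes held between 3.06% and 3.46% of the counts in atria and between 4.30% and 5.01% in ventricles. Expression is given as CPM, the counts of a gene normalised to library size after TMM scaling of all 12 libraries together. Levels of different members are compared per kilobase, of exon unless the longest coding transcript is named. A gene was called where edgeR's quasi-likelihood test gave a P value under 0.05 after Benjamini-Hochberg adjustment over all genes tested, and the number that also changed at least 1.5-fold is given beside it. The smallest P value that an exact permutation test allows with 3 mice per group is 0.1, and the adjusted P values below it come from the variance model that edgeR fits to all genes. In libraries of whole tissue, a smaller number of cells of a type and less RNA per cell cannot be told apart.

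To show the sequences behind the genes on which the results turn, 5 promoter windows of 300 bases are printed, from 250 bases before to 50 bases from the start of transcription, taken from RefSeq on GRCm38.p6 and written 5′ to 3′ on the strand of the gene. Ndufaf1 and Atp5sl were the genes that changed with genotype in both chambers, and Ndufs6, Sdhb and Cox8b had among the largest differences between chambers. Capitals mark matches on either strand to the motifs of 4 transcription factors known to act on nuclear mitochondrial genes: NRF1 (a consensus of 10 bases), the ETS family with GABPA (CCGGAAG), YY1 (AAGATGGC) and the estrogen-related receptors (AAGGTCA).
Ndufaf1, chr2:119662785-119663084, minus strand: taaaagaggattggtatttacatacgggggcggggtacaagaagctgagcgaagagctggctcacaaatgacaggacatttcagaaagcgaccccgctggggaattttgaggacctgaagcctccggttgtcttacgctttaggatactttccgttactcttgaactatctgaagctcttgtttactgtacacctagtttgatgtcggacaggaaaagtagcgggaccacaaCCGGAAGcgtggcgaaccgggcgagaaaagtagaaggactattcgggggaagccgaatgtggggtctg
Atp5sl, chr7:25619164-25619463, plus strand: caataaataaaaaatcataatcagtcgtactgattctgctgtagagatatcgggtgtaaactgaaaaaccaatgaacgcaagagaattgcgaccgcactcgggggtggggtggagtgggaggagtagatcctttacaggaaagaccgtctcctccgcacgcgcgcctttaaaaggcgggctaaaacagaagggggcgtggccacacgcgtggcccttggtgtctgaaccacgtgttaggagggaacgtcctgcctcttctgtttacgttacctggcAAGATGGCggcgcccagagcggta
Ndufs6, chr13:73328433-73328732, minus strand: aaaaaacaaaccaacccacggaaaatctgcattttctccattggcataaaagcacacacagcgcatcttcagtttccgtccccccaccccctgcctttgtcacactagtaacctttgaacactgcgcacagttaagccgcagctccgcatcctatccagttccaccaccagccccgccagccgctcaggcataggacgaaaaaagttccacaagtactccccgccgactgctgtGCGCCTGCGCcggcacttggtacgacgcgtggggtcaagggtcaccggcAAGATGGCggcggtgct
Sdhb, chr4:140961021-140961320, plus strand: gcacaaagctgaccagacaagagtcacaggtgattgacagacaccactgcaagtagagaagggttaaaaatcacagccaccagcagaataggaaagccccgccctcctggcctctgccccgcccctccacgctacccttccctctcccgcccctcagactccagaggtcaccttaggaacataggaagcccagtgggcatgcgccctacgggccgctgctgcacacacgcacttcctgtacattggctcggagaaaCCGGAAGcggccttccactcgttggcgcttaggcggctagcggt
Cox8b, chr7:140900397-140900696, minus strand: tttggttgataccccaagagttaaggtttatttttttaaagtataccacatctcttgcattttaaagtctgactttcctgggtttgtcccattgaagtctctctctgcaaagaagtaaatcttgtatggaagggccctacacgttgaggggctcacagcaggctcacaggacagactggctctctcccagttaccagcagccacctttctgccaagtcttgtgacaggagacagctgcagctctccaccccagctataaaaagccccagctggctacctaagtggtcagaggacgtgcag
The Ndufaf1 window held an ETS match that begins 18 bases before the start. The Sdhb window held an ETS match and the Atp5sl window a YY1 match, both just after the start. The Ndufs6 window held an NRF1 match before the start and a YY1 match after it. The Cox8b window held none of the 4. Windows were matched for 78 of the 95 genes. The NRF1 letters were in the windows of 24.4% of them and of 5.19% of all 27025 genes with a window, the ETS letters in 23.1% and 9.93%, the YY1 letters in 15.4% and 3.19%, and those of the estrogen-related receptors in 10.3% and 5.38%. At least 1 of the motifs was found for 55.1% of the members and 21.1% of all genes. These shares describe the letters in the windows, and binding was not measured.

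The first comparison asked whether expression of the CUG repeats changed nuclear oxidative phosphorylation genes. Few of them were called. In atria, 6 of 93 members tested were called (6.45%), 3 higher and 3 lower in CUG960 +dox mice, whereas 14.6% of all genes tested were called, 7.95% higher and 6.62% lower. An unadjusted P value under 0.05 was found for 12 of the 93, beside 30.2% of all genes. In ventricles, 2 of 94 were called (2.13%), against 9.94% of all genes, 5.73% higher and 4.20% lower, and these were Ndufaf1 and Atp5sl. None of the 84 subunits tested in ventricles was called by edgeR, with cytochrome c counted among them. An unadjusted P value under 0.05 was found for 4 of the 84, where it was found for 25.7% of all genes, and DESeq2 called only Cycs among them. With a change of at least 1.5-fold, Atp5sl was the only member called in atria, where 5.49% of all genes were, and Ndufaf1 and Atp5sl were the members called in ventricles, where 4.75% of all genes were. Both genes lay near the limit of 0.585 on the log2 scale in atria, and the 1.5-fold call changed with single mice. The log2 fold change of Atp5sl in atria was 0.561 without V333, 0.572 without V334 and 0.576 without V120, and that of Ndufaf1 in atria was −0.587 without V333, with adjusted P values still under 0.05.

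**Figure D1:**
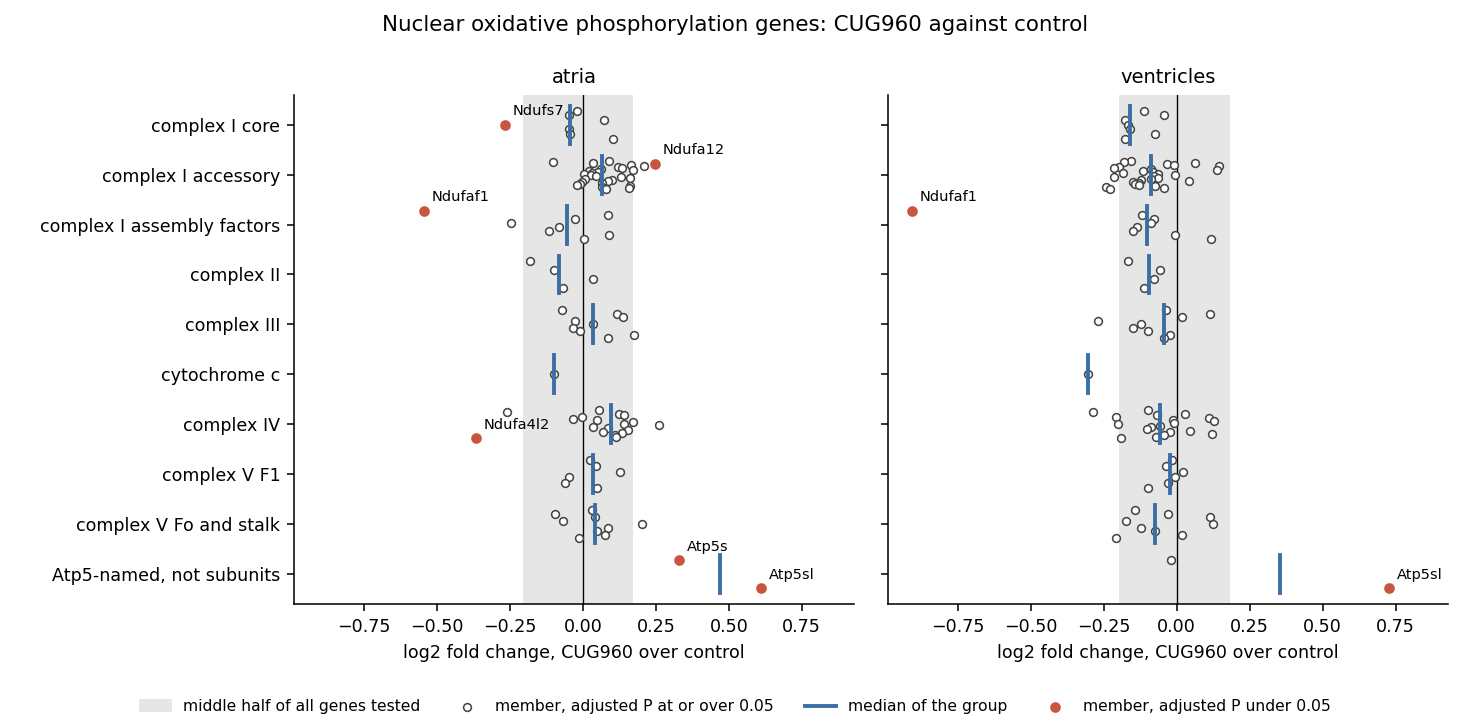
Log2 fold change of each member in CUG960 +dox mice over MHCrtTA +dox controls, in atria (left) and ventricles (right), by complex and role. Each point is a gene, red where the adjusted P value was under 0.05, blue bars are group medians and the grey band spans the interquartile range of all genes tested. Most members lie within the band, and Ndufaf1 and Atp5sl lie outside it in both panels.

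The log2 fold changes of subunits were small. In ventricles the log2 fold changes of the 84 subunits lay between −0.30 and 0.14 with a median standard error of 0.11, and in atria those of 83 subunits lay between −0.37 and 0.26 with a median standard error of 0.073. The median over all members was 0.047 in atria and −0.078 in ventricles, beside −0.0088 and −0.0094 over all genes tested. The atrial median was 0.015 without V119, 0.028 without V333, 0.074 without V327 and 0.087 without V123. In atria 62 members were above 0 and 31 below, and in ventricles 17 were above and 77 below. The direction in ventricles rested on V333, the control with the highest levels: without V333 the median was 0.016. It was −0.050 without V119, −0.11 without V120 and −0.15 without V334. The median was 0.033 when libraries were scaled by their totals alone, and the median of all genes was then 0.098.

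Ndufaf1, on the minus strand of chromosome 2 of GRCm38 from 119655446 to 119662827, fell in both chambers. It encodes an assembly factor of complex I that acts in the mitochondrial complex I intermediate assembly (MCIA) complex. In atria it had 21.0, 17.8 and 18.0 CPM in the controls V327, V333 and V334 and 13.1, 12.3 and 13.6 CPM in V119, V120 and V123. The groups did not overlap, and the log2 fold change was −0.55 with a standard error of 0.085 and an adjusted P value of 0.0054 by edgeR. In ventricles it had 36.3, 41.8 and 38.04 CPM in controls and 19.2, 20.8 and 21.8 CPM in CUG960 +dox mice, which gave a log2 fold change of −0.91 with a standard error of 0.089 and an adjusted P value of 4.4e-04. The level in CUG960 +dox ventricles, 20.6 ± 1.34 CPM, was close to that in control atria, 18.9 ± 1.76 CPM (SD, n = 3 each). Its lowest count in any library was 1849, so counting error was small beside the spread between mice.

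Atp5sl (GRCm38 chromosome 7, 25619414 to 25625551, plus strand) rose in both chambers. In atria it had 42.4, 35.3 and 35.8 CPM in V327, V333 and V334 and 57.1, 60.4 and 55.6 CPM in V119, V120 and V123, and the log2 fold change was 0.61 with a standard error of 0.081 and an adjusted P value of 0.0028. In ventricles it had 51.8, 49.6 and 41.4 CPM in controls and 71.7, 87.03 and 77.6 CPM in CUG960 +dox mice, and the log2 fold change was 0.73 with a standard error of 0.11 and an adjusted P value of 0.0034. Each CUG960 +dox mouse was above each control in both chambers. Ndufaf1 and Atp5sl both serve the membrane arm of complex I, and they moved in opposite directions. Both calls held in each chamber in every alternative fit that was run, leaving out any mouse included.

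**Figure D2:**
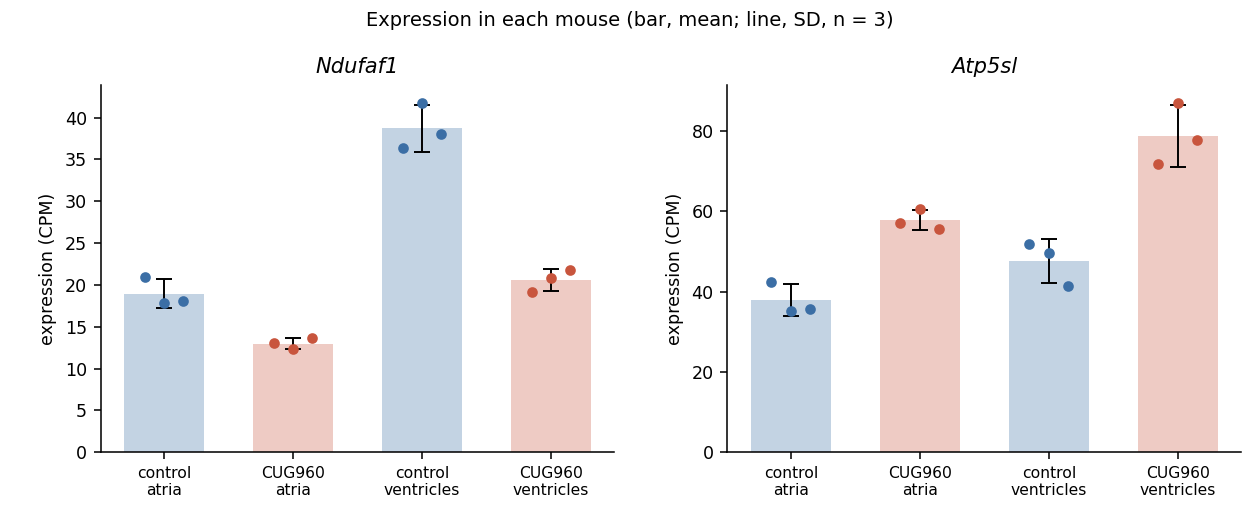
Expression of Ndufaf1 (left) and Atp5sl (right) in CPM in each group, where points are mice, bars are means and lines are SD (n = 3). Ndufaf1 was lower and Atp5sl higher in every CUG960 +dox mouse than in every control of the same chamber.

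The other 4 calls were made in atria alone and were smaller. Ndufs7, a core subunit that carries the last iron-sulfur cluster of complex I before ubiquinone, had 165, 162 and 163 CPM in V327, V333 and V334 and 140, 135 and 131 CPM in V119, V120 and V123. Its groups did not overlap, and its log2 fold change was −0.27 (standard error 0.054, adjusted P value 0.015 from edgeR). Atp5s had 11.6, 11.1 and 10.7 CPM in controls and 13.7, 14.0 and 14.3 CPM in CUG960 +dox mice, and the log2 fold change was 0.33 with a standard error of 0.067 and an adjusted P value of 0.016. Ndufa12, an accessory subunit, had 118.9, 107.5 and 106.4 CPM in controls and 131, 136 and 128 CPM in CUG960 +dox mice (log2 fold change 0.25, adjusted P value 0.037). A near-identical copy, Gm15920, held counts that came to 14.4% of those of Ndufa12, and with the copy added the adjusted P value was 0.046. Ndufa4l2, a paralog of Ndufa4 known to be induced in hypoxia, had 7.22, 7.54 and 6.66 CPM in controls and 5.64, 5.63 and 5.35 CPM in CUG960 +dox mice (log2 fold change −0.37, adjusted P value 0.032). The calls of Ndufs7, Atp5s, Ndufa12 and Ndufa4l2 were not stable: without V333, without V334 or without V120, only Ndufaf1 and Atp5sl were called in atria, and without V123 there were 11 calls.

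In ventricles the same 4 genes had log2 fold changes of −0.17 for Ndufs7, −0.020 for Atp5s, −0.032 for Ndufa12 and −0.19 for Ndufa4l2, none of them called. Of the subunits, 7 had groups that did not overlap in ventricles although none was called, and these were Sdha, Cycs, Cox4i2, Ndufa10, Ndufs5, Uqcrc2 and Atp5g3, each with the lower values in CUG960 +dox mice. Sdha, the flavoprotein of complex II, had 1265, 1365 and 1268 CPM in control ventricles and 1161, 1148 and 1161 CPM in CUG960 +dox ventricles (log2 fold change −0.17, adjusted P value 0.21), and −0.18 in atria (adjusted P value 0.063). Cycs, the somatic cytochrome c gene, had 1009, 1173 and 951 CPM in control ventricles and 829, 814 and 894 CPM in CUG960 +dox ventricles (log2 fold change −0.30, adjusted P value 0.085). Cox4i2, the isoform of subunit 4 linked to low oxygen, had 8.32, 8.76 and 7.79 CPM and 6.57, 6.82 and 6.996 CPM (log2 fold change −0.29, adjusted P value 0.10). Over all members, groups did not overlap for 17 of 93 in atria (18.3%) and 9 of 94 in ventricles (9.57%), beside 35.7% and 31.2% of all genes tested.

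The medians of the complexes lay close to 0 in both chambers. In atria the group medians of the log2 fold change were 0.066 for accessory and −0.045 for core subunits of complex I, −0.083 for complex II, 0.036 for complex III, 0.098 for complex IV, 0.035 for F1 and 0.040 for Fo and stalk. In ventricles they were −0.088, −0.16, −0.095, −0.045, −0.057, −0.023 and −0.075 in the same order. The assembly factors other than Ndufaf1 were not called: their log2 fold changes lay between −0.25 for Ndufaf4 and 0.09 in atria, and between −0.15 for Ndufaf6 and 0.12 for Ndufaf8 in ventricles. The 13 subunits encoded in mitochondrial DNA were 13 of 13 below 0 in ventricles, with a median log2 fold change of −0.37, and 3 of them, mt-Nd1 (−0.69), mt-Nd2 (−0.59) and mt-Co2 (−0.60), were called with adjusted P values of 0.0099, 0.021 and 0.046 from edgeR, where 9.94% of all genes were called. In atria 5 were above and 8 below 0, with a median of −0.058, and mt-Nd1 was called (−0.39, adjusted P value 0.011), where 14.6% of all genes were.

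Of the known partners of Ndufaf1 in the MCIA complex, Acad9, Ecsit, Tmem186 and Tmem126b are given here. None of these was called lower in either chamber. Acad9, Ecsit and Tmem186 had log2 fold changes of −0.10, −0.15 and −0.11 in atria and 0.15, −0.066 and −0.20 in ventricles, and none was called. Tmem126b was higher in atria (log2 fold change 0.28, adjusted P value 0.018 from edgeR) and had 0.029 in ventricles. Among 47 assembly factors tested outside the symbol rule, 5 were higher and 4 lower in atria and 0 were higher and 5 lower in ventricles, none of them by 1.5-fold, beside 14.6% and 9.94% of all genes called. Taco1, a translational activator of the COX1 protein, Ttc19, an assembly factor of complex III, and Coa5, of complex IV, were called lower in both chambers, with log2 fold changes of −0.32, −0.24 and −0.27 in atria and −0.27, −0.34 and −0.38 in ventricles. Lrpprc, which stabilizes mitochondrial mRNAs, fell from 185 ± 2.89 to 143 ± 8.84 CPM in ventricles (SD, n = 3 each, log2 fold change −0.37, adjusted P value 0.015 from edgeR). These genes were named after their values were seen.

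Of the 16 transcriptional regulators of mitochondrial genes, none was called in atria by edgeR and 2 were called in ventricles, both higher, where 9.94% of all genes were called. An orphan nuclear receptor of the estrogen-related family, Esrrb, had 42.4, 35.4 and 39.5 CPM in control ventricles and 59.4, 67.9 and 59.8 CPM in CUG960 +dox ventricles (log2 fold change 0.67, standard error 0.090, adjusted P value 0.0023). Its relative Esrrg had a log2 fold change of 0.41 (adjusted P value 0.024). Ppargc1a, the coactivator PGC-1alpha, had −0.14 in atria and −0.082 in ventricles, and Esrra −0.15 and −0.21. Nrf1 had −0.17 and −0.10, Gabpa −0.052 and −0.11, and Tfam, which packages and transcribes mitochondrial DNA, 0.14 and −0.025, and none of these 5 genes was called. Of the 18 genes of the tricarboxylic acid cycle, 1 was higher and 1 lower in atria and 0 in ventricles. Of the 78 mitochondrial ribosomal protein genes, 4 were higher and 1 lower in atria, and 2 were higher and 3 lower in ventricles. Beside these counts stand the 14.6% and 9.94% of all genes called in atria and ventricles.

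Markers of other cell types were measured beside these changes. Of all genes tested, 7.95% were called higher and 6.62% lower in atria, and 5.73% higher and 4.20% lower in ventricles. The 5 endothelial markers, led by Pecam1, summed to 533 CPM in control and 389 CPM in CUG960 +dox atria, and to 737 and 553 CPM in ventricles, with 3 of 5 lower in atria and 2 of 5 in ventricles. The 6 fibroblast markers, led by Dcn, summed to 2252 and 1889 CPM in atria, with 3 of 6 lower, and to 1229 and 1255 CPM in ventricles, with none called. The 4 white adipocyte markers, led by Cfd, were low throughout and summed to 9.46 and 4.55 CPM in atria, with none called, and to 5.45 and 1.58 CPM in ventricles, with 2 of 4 lower. The 5 skeletal muscle markers, led by Ckm, which the heart also expresses, summed to 773 and 510 CPM in atria, with 2 of 3 tested lower, and to 2584 and 2051 CPM in ventricles, with none called. The 4 smooth muscle markers, led by Acta2, summed to 235 and 297 CPM in atria, with 1 of 4 higher, and to 220 and 206 CPM in ventricles, with 2 of 4 lower. The 6 atrial cardiomyocyte markers, led by Nppa, summed to 28062 and 22942 CPM in atria without overlap, with 2 of 6 lower, and to 137 and 247 CPM in ventricles, with 1 of 6 higher and 1 lower. The 5 ventricular cardiomyocyte markers, led by Myl2, summed to 1862 and 1973 CPM in atria, with 1 of 4 tested lower. In ventricles they summed to 11434 and 11988 CPM, with 1 of 5 higher and 1 lower. Brown adipocyte markers had none called in either chamber. The 5 macrophage and leukocyte markers had none called either, and summed to 503 CPM in the atrial library of V334 beside 201 to 264 CPM in the other 5 atria. The 3 erythroid markers, led by Hbb-bs, had none called, and also set that library apart, with 2665 CPM beside 310 to 494 CPM in the other 5 atria. Without V334, Ndufaf1 and Atp5sl were the 2 members called in atria. No marker of the lists given here was at 0 in all libraries, and the part of other cell types in the genotype results was not tested.

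Whether the change with genotype differed between chambers was tested as the interaction of chamber and genotype. None of 94 members was called by edgeR or by DESeq2, beside 1.38% of all genes by edgeR, and 6 had an unadjusted P value under 0.05 (6.38%), beside 12.3% of all genes. The 5 members with the smallest P values had a lower change in ventricles than in atria, by −0.35 for Atp5s, −0.37 for Ndufaf1, −0.34 for the accessory subunit Ndufb3, −0.46 for the muscle isoform Cox7a1 and −0.35 for the accessory subunit Ndufa5 on the log2 scale. Their adjusted P values lay between 0.18 and 0.29. A call in atria with none in ventricles was therefore not shown to be a difference between chambers. The interaction was below 0 for 78 of the 94 members with a median of −0.11, and without V333 60 of the 94 kept their direction.

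The members moved together from library to library, also among mice of the same genotype. Against the mean of the 3 control ventricles, 93 of 94 members were higher in V333 and 94 of 94 were lower in V334, with medians of 0.19 and −0.16 on the log2 scale. Of all 17440 genes with at least 10 counts on average, 49.9% were above the mean in V333 and 50.3% in V334, with medians of 0 and 0.0011. The distance between these 2 control mice was larger than the median change with genotype. Among the CUG960 +dox mice the medians were −0.14 in V119, 5.6e-04 in V120 and −0.094 in V123. Over all genes they were 5.9e-04, 0.0039 and −0.0054 in the same order. In control atria 88 of 94 members were above the mean in V327, with a median of 0.059, and 84 and 77 were below it in V333 and V334. Of all genes, 51.9%, 49.7% and 45.9% were above the mean in atria of V327, V333 and V334. The mouse with the highest ventricular levels among controls, V333, was not the highest in atria.

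**Figure D3:**
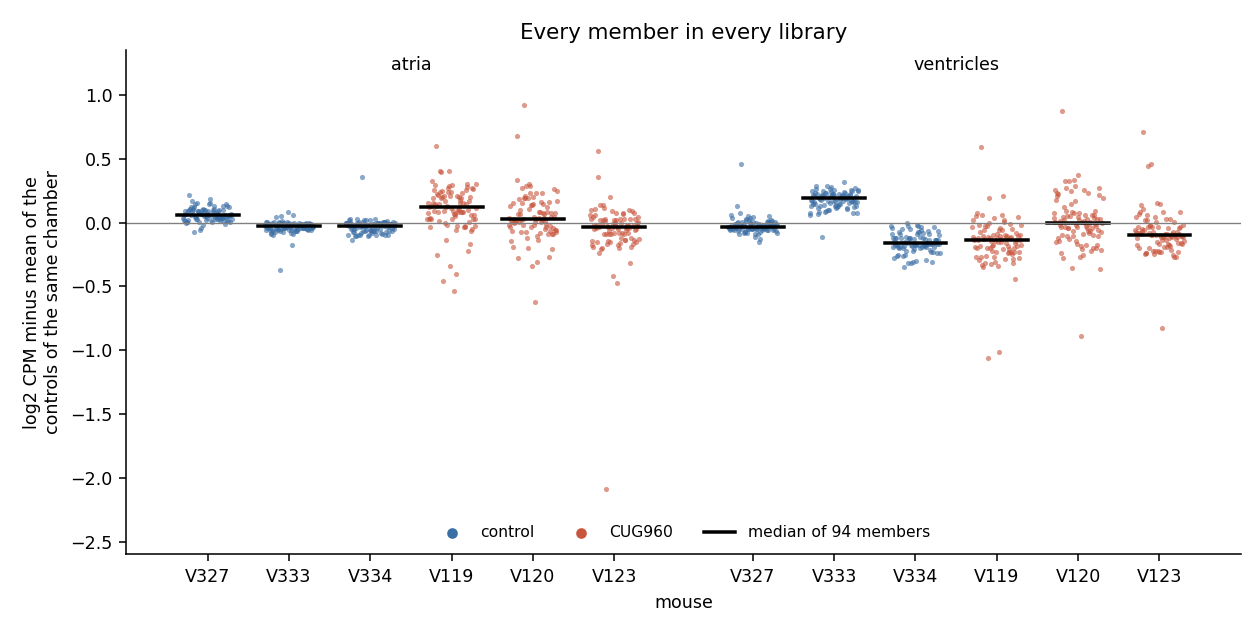
Log2 CPM of each of 94 members in each library, minus the mean of the 3 controls of the same chamber, with black bars at the medians. In control ventricles 93 of 94 points of V333 lie above 0 and all 94 of V334 lie below it.

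Summed levels varied likewise. The members summed to 28241, 26646 and 26819 CPM in atria of V327, V333 and V334 and to 29124, 27865 and 26900 CPM in atria of V119, V120 and V123. In ventricles they summed to 53981, 61508 and 50155 CPM in controls and to 50324, 55388 and 51999 CPM in CUG960 +dox mice. The groups overlapped in both chambers. The 13 mitochondrially encoded subunits did not follow these sums in ventricles or in CUG960 +dox atria. In control atria V327 had the highest of both sums, with 106351 CPM of mitochondrially encoded transcripts, beside 101107 in V333 and 100963 in V334. In CUG960 +dox atria V119 had the highest nuclear sum and the lowest mitochondrial one, 90380 CPM. Among control ventricles V333 had the highest nuclear sum and 233187 CPM of mitochondrially encoded transcripts, between V334 (232220) and V327 (240195). V120 had the highest nuclear sum and the lowest mitochondrial one of the CUG960 +dox ventricles, 166246 CPM, beside 199789 in V119 and 191048 in V123. Between genotypes in ventricles the mean mitochondrial sum was 0.790 times that of controls, 185694 and 235201 CPM, with no overlap, whereas the mean nuclear sums were 52571 ± 2580 and 55214 ± 5776 CPM (SD, n = 3 each). In the same libraries the 6 markers of cardiomyocytes of both chambers, of which Myh6 had the largest CPM and none was at 0, summed to between 56115 and 61054 CPM in ventricles and between 48574 and 51572 CPM in atria. Between genotypes 1 of these 6 was higher (Myh6) and 1 lower (Ryr2) in atria, and 1 was lower (Ryr2) in ventricles. In ventricles of V327, V333 and V334 these 6 markers summed to 57525, 58454 and 56115 CPM, in the order of the nuclear sums. The 5 ventricular cardiomyocyte markers had that order too, with 11223, 12754.5 and 10325 CPM. In ventricles of V119, V120 and V123 the ventricular markers had another order than the nuclear sums, with 11540, 12018 and 12406 CPM. The part of both marker lists in the shifts was not tested.

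The second comparison set ventricles against atria. Nearly all members were higher in ventricles. In controls 90 of 94 were higher and 2 lower, and 83 and 1 of these differed at least 1.5-fold, whereas 27.5% of all genes tested were higher and 28.3% lower (55.7% in all), and 16.6% and 18.3% by at least 1.5-fold (34.9% in all). The median difference was 1.05 on the log2 scale (2.07-fold), beside −0.033 over all genes. In CUG960 +dox mice 88 members were higher and 1 lower, beside 27.5% and 26.7% of all genes (54.2% in all), and 77 and 1 differed at least 1.5-fold, beside 16.4% and 17.2% of all genes (33.6% in all). The median difference was 0.94 (1.92-fold), beside −0.0090 over all genes. These comparisons use the same libraries as the genotype comparisons.

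**Figure D4:**
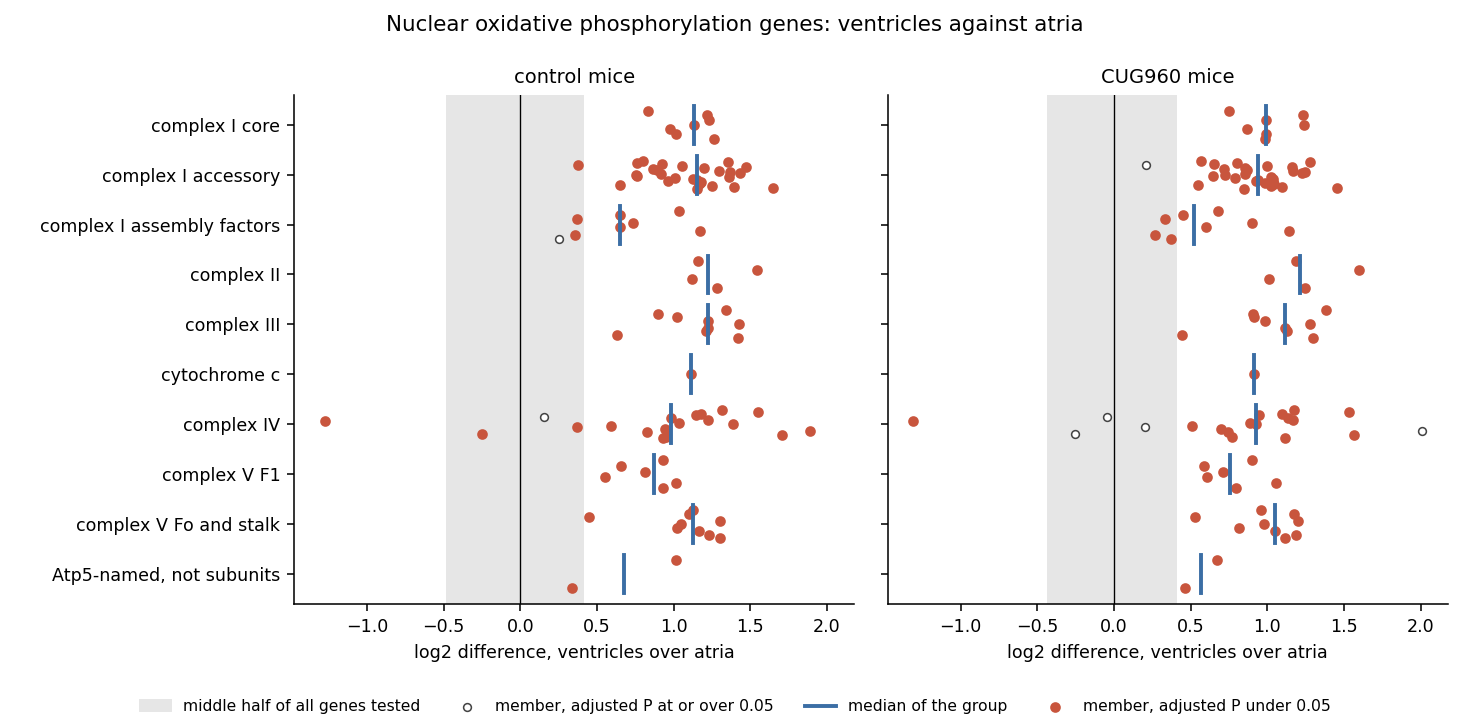
Log2 difference of each member in ventricles over atria, in control mice (left) and CUG960 +dox mice (right), by complex and role. Each point is a gene, red where the adjusted P value was under 0.05, blue bars are group medians and the grey band spans the interquartile range of all genes tested. Most points lie to the right of the band, and complex I assembly factors lie nearer to it than the subunits of complexes I to III.

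The size of this difference depended on the scaling. Mitochondrially encoded transcripts took 19.6% to 20.5% of the counts of control ventricles and 11.8% to 12.2% of those of control atria. Scaled by library totals alone, the median difference of the members was 0.59 in controls and 0.55 in CUG960 +dox mice, and the median over all genes moved to −0.49 and −0.40. With that scaling 78 members were higher and 3 lower in controls, and 12407 of all genes were called, beside 9726 with TMM scaling. With mitochondrially encoded genes left out before TMM scaling the median in controls was 1.05.

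By role, the median differences in controls were 1.13 for core and 1.15 for accessory subunits of complex I, 1.22 for complex II and for complex III, 0.98 for complex IV, 0.87 for F1 and 1.13 for Fo and stalk. The complex I assembly factors had a median of 0.65, with 7 of 8 higher, from 0.25 for Ndufaf8, which was not called, to 1.17 for Ndufaf6. Other mitochondrial lists had similar medians, 1.05 for the tricarboxylic acid cycle with 18 of 18 genes higher, 0.82 for mitochondrial ribosomal proteins with 75 of 78 higher, 0.76 for the other assembly factors with 46 of 47 higher, and 1.16 for the mitochondrially encoded subunits with 13 of 13 higher. Of the transcriptional regulators, 6 of 16 were higher and 2 lower. Of all genes tested, 27.5% were higher and 28.3% lower. Tfam was higher in ventricles (log2 difference 0.52, adjusted P value 3.0e-04 from edgeR) and Nrf1 lower (−0.36, adjusted P value 0.0056), and Ppargc1a (−0.055), Gabpa (−0.014) and Esrra (0.17) were not called.

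The largest differences in controls, among members with a mean of at least 1 CPM, were those of Cox8b, Ndufs6, Cox4i2, Sdhb and Ndufa3. Cox8b, the heart and skeletal muscle isoform of subunit 8, had 139, 132 and 126 CPM in atria and 434, 518 and 341 CPM in ventricles of V327, V333 and V334 (log2 difference 1.71, standard error 0.14, adjusted P value 2.0e-05 from edgeR). Ndufs6, an accessory subunit of the matrix arm, had 113, 104 and 101 CPM in atria and 316, 382 and 294 CPM in ventricles (log2 difference 1.65). Sdhb, the iron-sulfur subunit of complex II, had 296, 260 and 258 CPM in atria and 782, 881 and 705 CPM in ventricles (log2 difference 1.55). The groups of each of these genes were far apart in both genotypes, and in CUG960 +dox mice the log2 differences were 1.56, 1.45 and 1.60. All 4 genes of complex II were higher in ventricles, Sdha by 1.16, Sdhc by 1.12 and Sdhd by 1.28 on the log2 scale.

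Few members were not higher in ventricles. Cox8a, the ubiquitous isoform of subunit 8, had 104, 112 and 108 CPM in control atria and 85.8, 96.05 and 88.7 CPM in control ventricles (log2 difference −0.25, standard error 0.067, adjusted P value 0.012), a call that was lost without V327 (0.074) and without V334 (0.066). Cox6a1 had a difference of 0.15 that was not called. Scaled by library totals, its difference was −0.31 and was called lower (adjusted P value 0.017 from edgeR). Cox6b2, known from testis, had 1.54 ± 0.0284 CPM in atria and 0.634 ± 0.192 CPM in ventricles (SD, n = 3 each, log2 difference −1.27, adjusted P value 0.0019). The other isoforms known mainly from testis were nearly silent: Cox7b2 had at most 0.176 CPM in any library, and Cox8c had 1 count in all 12 libraries together.

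Markers of other cell types also differed between the chambers. In controls the 6 fibroblast markers, led by Dcn, summed to between 2054 and 2361 CPM in atria and between 1163 and 1354 CPM in ventricles, and 6 of 6 were lower in ventricles. The 5 macrophage and leukocyte markers, led by Lyz2, summed to between 201 and 503 CPM in atria and between 87.2 and 110 CPM in ventricles, with 4 of 5 lower. The 5 endothelial markers went the other way, from 533 to 737 CPM (1.38-fold), with 4 of 5 higher and 1 lower. The skeletal muscle markers summed to 773 and 2584 CPM (3.34-fold), with 2 of 3 tested higher and 1 lower. Of the 4 smooth muscle markers 2 were higher and 2 lower, the 1 brown adipocyte marker tested was higher, and no white adipocyte or erythroid marker was called in controls. The 6 cardiomyocyte markers of both chambers summed to 49942 and 57365 CPM, 1.15-fold higher in ventricles, with 3 of 6 higher and none at 0, and Myh6 made up 48.9% of the sum. In CUG960 +dox mice 5 of 6 fibroblast, 5 of 5 macrophage and leukocyte and 2 of 4 white adipocyte markers were lower in ventricles, and 3 of 5 endothelial and 3 of 3 erythroid markers were higher. The smooth muscle markers were 1 higher and 2 lower of 4, 2 of 3 skeletal muscle markers tested and the 1 brown adipocyte marker tested were higher, and so were 3 of the 6 cardiomyocyte markers. There the white adipocyte markers summed to 4.55 CPM in atria and 1.58 CPM in ventricles, and the erythroid markers to 359 and 1549 CPM. Beside these counts, 27.5% of all genes tested were higher and 28.3% lower in ventricles of controls (55.7% in all). In CUG960 +dox mice 27.5% were higher and 26.7% lower (54.2% in all). The part of cell composition in the chamber difference was not tested.

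Per kilobase of exon, the highest levels in control ventricles were those of Cox6a2 (1711 ± 261 CPM per kb), Atp5a1 (1665 ± 60.7), Cox7a1 (1535 ± 269), Atp5b (1248 ± 57.6) and Cox8b (1197 ± 247). Of the 5, 3 are muscle isoforms of complex IV, and the other 2 are the alpha and beta subunits that form the catalytic head of ATP synthase. Between neighbours in this order the means differed by less than the larger of the 2 SDs, except between Cox7a1 and Atp5b. The order depends on the length used: per kilobase of the longest coding transcript, Atp5b ranked 1, Cox4i1 2, Atp5a1 3, Atp5g3 4 and Cox6a2 5, with Cox7a1 at 6 and Cox8b at 11, so Cox6a2 was then the 1 muscle isoform among the first 5. In CUG960 +dox ventricles Cox6a2 had 1254 ± 174 CPM and Atp5a1 5155 ± 182 CPM, beside 1163 ± 178 and 5219 ± 190 CPM in controls.

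The muscle isoforms outnumbered their partners, and more so in ventricles. Per kilobase, Cox6a2 was 9.82 to 11.3 times as abundant as Cox6a1 in control atria and 17.2 to 20.2 times in control ventricles. Cox7a1 was 1.87 to 2.13 times as abundant as Cox7a2 in control atria and 3.14 to 3.51 times in control ventricles, and Cox8b was 2.01 to 2.30 and 6.60 to 9.28 times as abundant as Cox8a. In each of the 3 pairs no ratio of a ventricle was as low as that of any atrium in either genotype. The ratio of Cox6a2 to Cox6a1 in CUG960 +dox ventricles, 22.6 to 23.7, was above that of all 3 control ventricles, and neither gene was called on its own (log2 fold changes 0.11 and −0.21). In atria that ratio was 9.97 to 10.52 in CUG960 +dox mice, within the range of controls. The ratio of Cox7a1 to Cox7a2 in CUG960 +dox mice was 2.25 to 2.40 in atria, above the controls, and 2.87 to 3.24 in ventricles, where it overlapped the controls and had the lower mean (3.07 beside 3.38). For Cox8b and Cox8a it was 1.92 to 2.23 in atria and 6.20 to 8.43 in ventricles, and both overlapped the controls. These ratios were not tested.

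**Figure D5:**
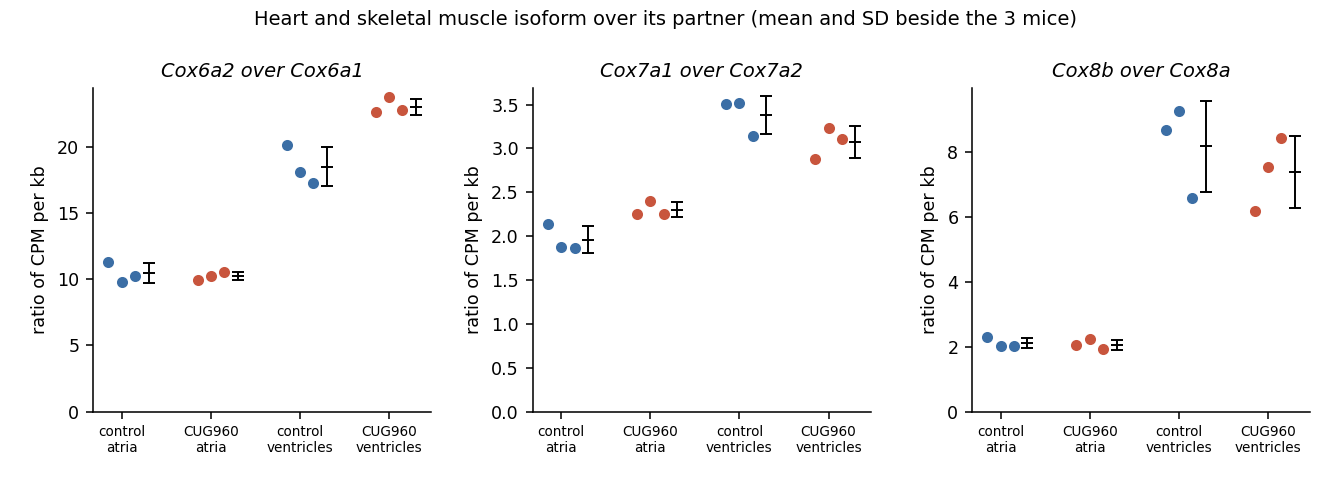
Ratio of CPM per kb of exon of the muscle isoform over its partner for subunits 6a, 7a and 8 of complex IV, in the 4 groups. Points are mice and black marks are the mean and SD (n = 3), and all ventricles lie above all atria in each panel.

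Cox4i1 and Ndufa4 held nearly all of the expression of their pairs. Per kilobase, Cox4i1 was 109 to 121 times as abundant as Cox4i2 in control atria and 132 to 149 times in CUG960 +dox atria, without overlap. In ventricles the ratio was 90.6 to 105 in controls and 102 to 121 in CUG960 +dox mice, with overlap. Ndufa4 was 42.5 to 48.4 times as abundant as Ndufa4l2 in control atria and 60.5 to 66.9 times in CUG960 +dox atria, again without overlap, and 43.9 to 47.6 and 46.9 to 52.9 times in ventricles. These ratios were not tested. Subunit c of ATP synthase is made from 3 genes that encode the same mature protein. Atp5g3 had the highest level of the 3, with 625 CPM per kb in control ventricles beside 208 for Atp5g1 and 155 for Atp5g2, and 1886, 217 and 344 per kb of the longest coding transcript. Atp5g3 was 2.41 to 3.37 times as abundant per kb as Atp5g1, and Atp5g1 was 0.760 to 1.41 times as abundant as Atp5g2. In atria the ratio of Atp5g1 to Atp5g2 was 0.849 to 0.861 in controls and 0.760 to 0.811 in CUG960 +dox mice, without overlap. In ventricles it was 1.25 to 1.41 and 1.07 to 1.31, with overlap. The ratios of these genes were not tested either. Atp5g3 and Atp5g1 were 1.301 and 1.10 higher in control ventricles than in control atria on the log2 scale, and Atp5g2 was 0.45 higher. With libraries scaled by their totals, the difference of Atp5g2 was −0.012.

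Reads of near-identical copies limit a few values. RSEM divides such reads by estimate, and for 5 members copies of at least 97% identity held more than 1% of the counts of the member: BC002163 for Ndufs5 (110%), Gm6969 for Cox7a2l (25.5%), Gm10221 for Atp5l (22.5%), Gm10053 for Cycs (17.7%) and Gm15920 for Ndufa12 (14.4%). With the counts of the copies added, the calls in atria and ventricles were the same genes, and Cycs in ventricles had a log2 fold change of −0.30 (adjusted P value 0.086 from edgeR). Exons of 28 members overlap a gene on the other strand, and those of Ndufb2, Ndufb8, Ndufb9 and Atp5g2 overlap a gene on the same strand. The libraries were stranded, and whether counting used the strand is not given in the sources used here.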

How the data were processed

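RNA of atria and ventricles from 3 CUG960 +dox mice and 3 MHCrtTA +dox controls was sequenced from stranded, poly(A)-selected libraries. The authors aligned the reads to GRCm38 (mm10), estimated expected counts per gene with RSEM 1.3.1 and deposited them as 1 table of whole numbers, not scaled to library size, so no rounding was needed. All 12 columns were used.

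Genes were tested with edgeR 4.0.16 in R 4.3.3 (filterByExpr, TMM, glmQLFit and glmQLFTest), each chamber or genotype on its own and the interaction over all 12 libraries, with Benjamini-Hochberg adjustment over all genes. Positions and exon lengths came from GENCODE M21: 93 members matched by symbol, 1 by an older symbol (Atp5sl), and 1 (Atp5o) was not matched and has no length. Steps were tested on simulated data. Tables and figures were made with Python 3.11.15, pandas 2.3.3 and matplotlib 3.10.9.

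Depth was 116127966 to 160676189 counts per library, so the number of mice limits precision. Atria and ventricles came from the same mice, so the mouse pairs the chambers. Across genes, deviations from the group mean correlated between the libraries of 1 mouse at r of 0.030 to 0.13 and between different mice at −0.14 to 0.054.

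Members and lists were chosen with earlier results of these data known. Named genes were members called with at least 1.5-fold change, the 2 called genes with the largest change per complex and chamber, the 5 smallest interaction P values, the 5 largest chamber differences per direction, the 5 highest levels per kb, isoform pairs and Sdha to Sdhd, and of the other lists the genes called with at least 1.5-fold change with Ppargc1a, Esrra, Nrf1, Gabpa and Tfam. Cycs, Ndufa12, Ndufa10, Ndufs5, Uqcrc2, the other assembly factors, the MCIA partners, Esrrg and Lrpprc were named after their values were seen. Alternatives were DESeq2 1.42.0, RLE and upper quartile scaling, library totals, other filters, mitochondrially encoded genes left out, 1 fit of all libraries, the mouse as a block, copies added, and each mouse left out.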

Additional observations from a re-analysis of the deposited data

How the results depend on the processing

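With a fold change of at least 1.5, the number of members called in atria was 1. Leaving out each mouse in turn gave 2 to 11 calls in atria, 2 to 3 in ventricles, 0 for the interaction, 87 to 91 between control chambers and 86 to 89 between CUG960 +dox chambers. All genes called in these fits numbered 1235 to 2584 in atria, 784 to 1347 in ventricles and 74 to 131 for the interaction. They numbered 7679 to 8638 between control chambers and 7493 to 7965 between CUG960 +dox chambers. The median difference between CUG960 +dox chambers ranged from 0.89 to 1.03 in these fits, the highest without V119. Scaling by library totals, like adding copies, was an alternative chosen after seeing the data. With it the median difference between chambers was 0.59 in controls and 0.55 in CUG960 +dox mice. In controls Cox6a1 was −0.31 and was called lower (adjusted P value 0.017 from edgeR), and Atp5g2 was −0.012. Of the members, 82 of 93 in atria and 54 of 94 in ventricles kept the direction of their genotype change. The median over all genes was then 0.031 in atria and 0.098 in ventricles. With that scaling genes that were not called changed sign: the log2 fold change of Cox6a1 in atria was 0.034, of Cox6a2 in atria 0.0036, of Cox4i1 in ventricles 0.013, of Cox6b1 in ventricles 0.10, of Cox7a2 in ventricles 0.054, of Cox8b in ventricles 0.071, of Atp5g1 in ventricles 0.082, of Ndufa4 in ventricles 0.039, of Sdhb in ventricles 0.055 and of Sdhc in ventricles 0.031. Leaving out each mouse, log2 fold changes that crossed 0 ranged from −0.059 to 0.082 for Cox6a1 in atria, −0.090 to 0.034 for Cox6a2 in atria, −0.054 to 0.085 for Cox7a2 in atria, −0.0078 to 0.065 for Atp5g2 in atria, −0.18 to 0.0056 for Cox4i1 in ventricles, −0.0062 to 0.20 for Cox6a2 in ventricles, −0.10 to 0.11 for Cox6b1 in ventricles, −0.034 to 0.40 for Cox6b2 in ventricles, −0.13 to 0.049 for Cox7a2 in ventricles, −0.18 to 0.11 for Cox8b in ventricles, −0.16 to 0.083 for Atp5g1 in ventricles, −0.16 to 0.042 for Ndufa4 in ventricles and −0.13 to 0.032 for Sdhb in ventricles. None of these genotype changes was called in any of the fits where its sign changed, and the cause was not tested. DESeq2 called 9 members in atria, the 6 of edgeR with Sdha (adjusted P value 0.011), Atp5h (0.047) and Cox7a1 (0.047), and 3 in ventricles, the 2 of edgeR with Cycs (0.022). Of all genes DESeq2 called 3555 in atria and 2572 in ventricles, beside 2573 and 1680 by edgeR. With the mouse as a replicate block, 92 members were called between control chambers, 90 between CUG960 +dox chambers and 0 for the interaction, so the pairing changed no count by more than 1.

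Of 991 alternative values for 71 results on named genes, 942 kept direction and side of the threshold, 14 lost the call, 3 gained one and 32 changed sign. Groups of 3 mice and whole-tissue RNA limit these data, and absence of a call does not show absence of a change. Transcript levels do not give protein or activity of a complex.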
